A study of Homo sapiens with 4 samples.

Results

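TXNIP, its arrestin relatives and the first steps of glucose use were followed in RPE1 cells, a telomerase-immortalised line from human retinal pigment epithelium, after siRNA against SAF-A (HNRNPU, a nuclear RNA- and DNA-binding protein). The set was 10 named genes of the 25027 symbols or unmatched identifiers in the deposited gene tables: TXNIP, ARRDC4, ARRDC3 and ARRDC2, the transcription factors MLXIP (MondoA) and MLX, the glucose transporters SLC2A1 and SLC2A3, and the hexokinases HK1 and HK2. They were chosen by pathway and by the FPKM of TXNIP and its relatives in these same 4 libraries, so their levels and changes are descriptions with no test. The study transfected RPE1 cells with 10 nM of a Stealth siRNA, either 1 duplex against SAF-A or a negative control, and took total RNA at 24 h and at 48 h. Each of the 4 groups (control or SAF-A siRNA, 24 h or 48 h) was 1 library, so no difference between groups has a replicate check and no p-value is given. All 4 groups also share the transfection reagent and the DMEM-F12 medium with serum, and no untransfected library was analysed here.

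TXNIP is an alpha-arrestin, a class of adaptor proteins that bring plasma-membrane cargo to ubiquitin ligases of the NEDD4 family, and it also binds thioredoxin. It limits glucose uptake by promoting the internalisation of glucose transporters, and its own gene is among the best known targets of MondoA, which pairs with MLX and enters the nucleus when glucose 6-phosphate builds up. Glucose thus raises TXNIP, and TXNIP lowers glucose entry, a feedback loop whose upstream steps are the transporters GLUT1 (SLC2A1) and GLUT3 (SLC2A3) and the hexokinases that make glucose 6-phosphate.

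The promoter sequences of 4 of the genes are shown first, since MondoA and MLX bind paired E-box-like sites, called carbohydrate response elements, in the promoters of their targets. Windows from 250 bases before to 50 bases after each RefSeq transcription start (assembly GRCh38.p14) were available for 9 of the 10 genes, 19 windows in all. Capitals mark an E-box (CACGTG), a pair of E-box-like sites (CACGNG, 5 bases, CACGNG, printed in capitals with its spacer), a CCAAT box or its reverse complement ATTGG, and a forkhead site (GTAAACA), all searched on both strands. Sequences run 5′ to 3′ on the strand of the gene. TXNIP lies on the minus strand of GRCh38.p14 but on the plus strand of hg19, the assembly of the deposited coordinates given further below.
TXNIP, chr1:145996630-145996729, minus strand, 100 bases from position -150 relative to the start: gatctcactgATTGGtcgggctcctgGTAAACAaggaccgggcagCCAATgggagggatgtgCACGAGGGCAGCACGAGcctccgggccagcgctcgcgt
ARRDC4, chr15:97960483-97960582, plus strand, 100 bases from -220: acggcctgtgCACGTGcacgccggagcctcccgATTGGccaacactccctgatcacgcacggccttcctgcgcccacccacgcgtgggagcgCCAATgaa
MLX, chr17:42567020-42567069, plus strand, 50 bases from -80: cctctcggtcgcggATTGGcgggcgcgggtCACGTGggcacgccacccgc
HK2, chr2:74834960-74835039, plus strand, 80 bases from -210 of its second window, E-boxes only in capitals: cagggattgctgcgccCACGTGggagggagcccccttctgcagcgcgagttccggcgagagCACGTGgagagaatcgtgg

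The paired E-box-like sites lay at -88 to -72 from the TXNIP start, next to a CCAAT box, and TXNIP was the only one of the 9 genes with that pair. Of all 35116 RefSeq windows of the same length, 20 held the pair (0.057%), a CCAAT box was in 34.6%, an E-box in 7.26% and the forkhead letters in 3.42%. E-boxes were found in ARRDC4, MLX and HK2, a CCAAT box in each of the 9 genes, and the forkhead letters in TXNIP and ARRDC3. A gene was counted if any of its windows matched, and HK1 alone has 7 windows. Counted that way over all 27305 genes, a CCAAT box was in 39.7%, an E-box in 8.77% and the forkhead letters in 4.19%. A looser pair (CANGNG, 5 bases, CNCNTG) was in 0.564% of windows and in none of the 9 genes. The short hypoxia core ACGTG, which is also contained in every E-box, was in 21.4% of all windows and 24.9% of all genes. Among the 9 genes it was in TXNIP, ARRDC4, MLX and HK2. These matches describe letters in a window and do not show binding.

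**Figure D1:**
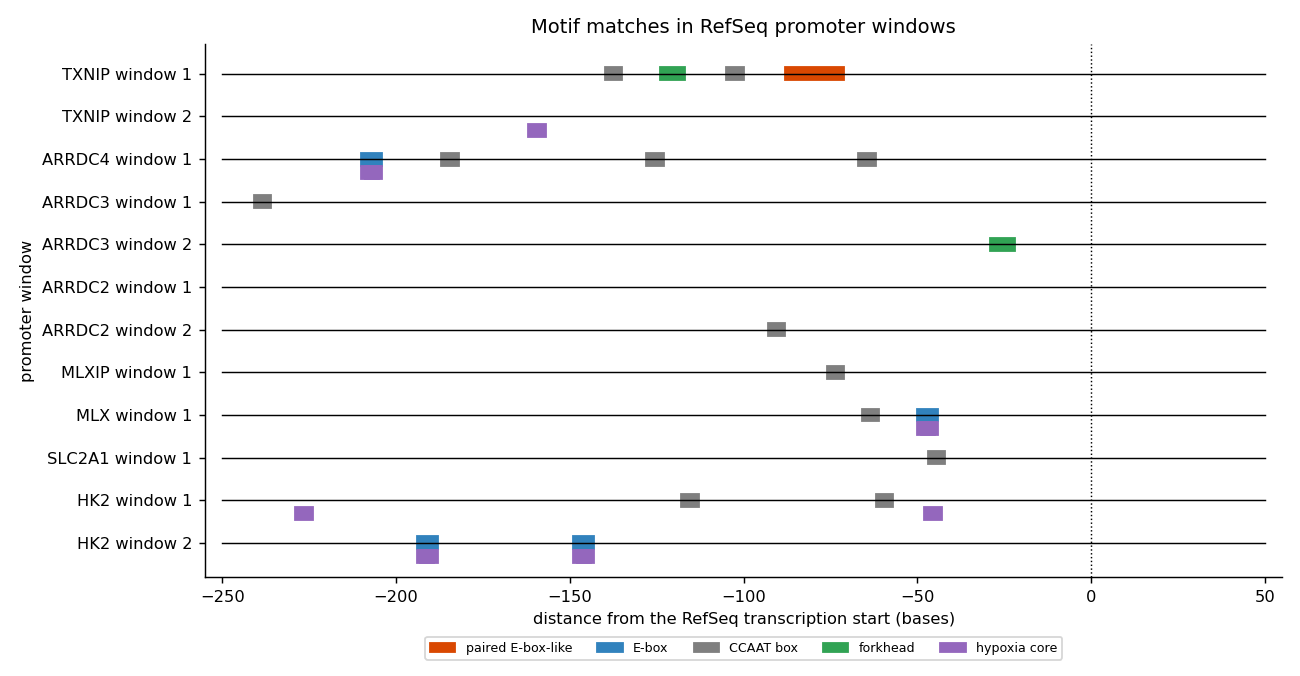
Motif matches (coloured boxes) along 12 RefSeq promoter windows of TXNIP, ARRDC4, ARRDC3, ARRDC2, MLXIP, MLX, SLC2A1 and HK2; the x axis is the distance in bases from the transcription start (dotted line), and the 7 windows of HK1 are not drawn. The pair of E-box-like sites (labelled paired E-box-like) appears in the first TXNIP window only, at -88 to -72, and HK2 holds 2 E-boxes in its second window.

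Levels are given as FPKM, the number of fragments scaled by transcript length and by the mapped reads of the library, with the authors' deposited 95% interval or, for ratios, an exact counting interval from estimated reads. The library of SAF-A siRNA at 48 h stood apart by its depth: the deposited coverage implies 1216740 mapped reads, against 28083822 to 30701282 in the other 3, so that 1 FPKM of a 2 kb transcript is worth 2.19 reads there and 50.54 to 55.25 elsewhere. Every result at 48 h of SAF-A siRNA rests on that library, and its part in those results was not tested. The intervals of ratios cover counting error only, for reads without molecular identifiers. With 1 library per group, no interval holds the spread between replicates. The level of HNRNPU, the target, was 91.2 FPKM in the control library and 10.4 FPKM in the SAF-A library of 24 h. The pair of 48 h had 84.6 and 9.24 FPKM. Of 10 epithelial and RPE1 markers, 6 had a mean of at least 1 FPKM, led by VIM (1586 FPKM in control and 3312 FPKM in SAF-A siRNA at 48 h), while RPE65, a gene of differentiated pigment epithelium, was listed at 0 in all 4 libraries. In the same pair of 48 h, KRT18 was at 229 and 23.3 FPKM and KRT8 at 63.9 and 15.4 FPKM. KRT7 was at 8.92 and 3.84 FPKM and MITF at 9.01 and 4.23 FPKM. In the other direction, CDH2 was at 51.1 and 81.5 FPKM, TERT at 0.680 and 0.908 and BEST1 at 0.516 and 0.969 FPKM. The part of these markers in the 48 h results was not tested. The summed level of 5 fibroblast markers was 0.693 to 2.78 FPKM and that of 3 endothelial markers at most 0.0580 FPKM, and the 4 immune markers, nearly all CD68, summed to 7.35 to 11.4 FPKM. A gene was called higher or lower at a difference of at least 2-fold on the log2(FPKM + 1) scale, among the 11053 genes whose mean reached 1 FPKM and whose longest transcript had at least 300 nt. That scale understates the change of low genes.

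TXNIP (hg19 chr1:145438438-145442628, plus strand, 8 exons) had 9.67 FPKM (8.96 to 10.4) in the control library and 4.04 FPKM (3.60 to 4.48) in the SAF-A library of 24 h. The libraries of 48 h had 17.4 FPKM (16.5 to 18.4) after control siRNA and 2.99 FPKM (1.06 to 4.92) after SAF-A siRNA, the last from about 10 estimated reads. Both SAF-A libraries were below both control libraries, with no overlap of the deposited intervals. TXNIP thus fell by 1.08 on the log2 scale at 24 h, a ratio of FPKM that was 2.39-fold lower (2.10 to 2.73), and by 2.21 at 48 h, where the ratio was 5.83-fold lower (3.16 to 12.2). At 24 h, among all tested genes, only 0.244% were called lower and 0.389% higher, and TXNIP was the 26th lowest of 11053, while HNRNPU was the 3rd lowest. At 48 h the shares were 18.5% lower and 14.3% higher, and TXNIP was the 256th lowest. A lower level in bulk RNA cannot tell fewer cells that express a gene from less RNA per cell.

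With control siRNA, TXNIP was 1.80-fold higher (1.65 to 1.98) at 48 h than at 24 h, short of the 2-fold call, and the 119th highest of all tested genes in that comparison. With SAF-A siRNA the 48 h level was 0.740 times (0.352 to 1.38) the 24 h level, an interval that includes no change. The difference of the siRNA effect between the times was -1.13 on the log2 scale, and whether the 2 effects differ could not be tested with 1 library per group. Each siRNA comparison shares a library with each comparison of times, so the 4 comparisons are not separate observations.

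**Figure D2:**
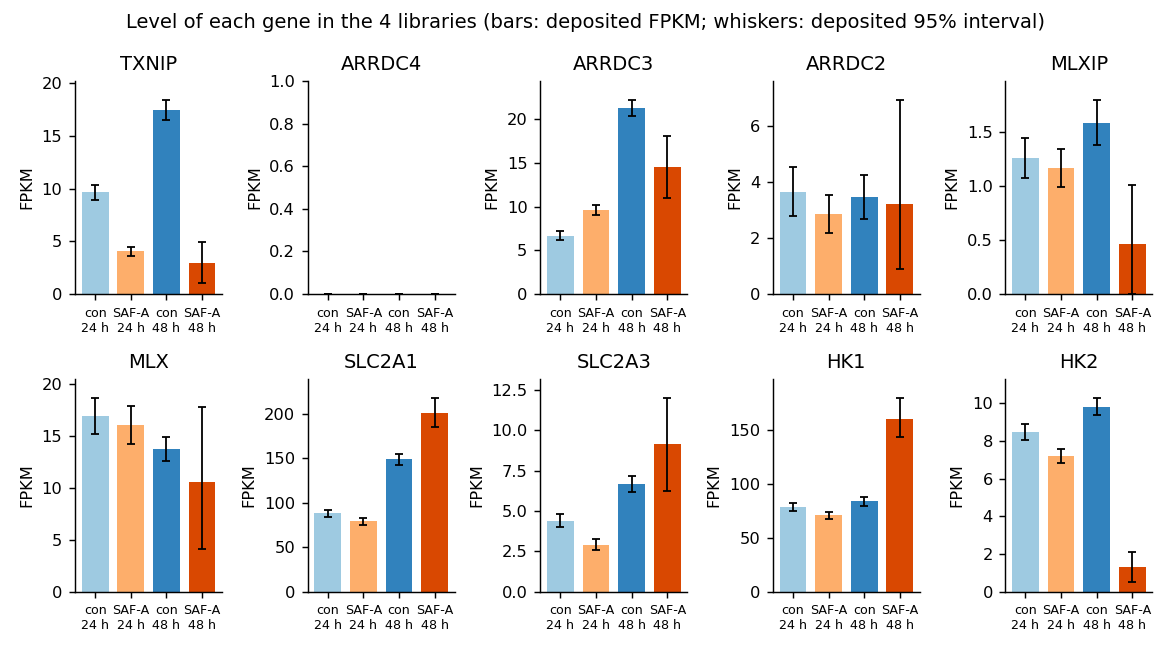
FPKM of the 10 genes in each of the 4 libraries, as bars with the deposited 95% intervals as whiskers; each bar is 1 library. The TXNIP bars of the SAF-A libraries, 4.04 and 2.99 FPKM, are lower than those of the control libraries, 9.67 and 17.4 FPKM, and the intervals are wide in the SAF-A library of 48 h.

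The genes nearest to TXNIP in their profile over the 4 libraries were NHLRC3, TNRC6A and KCNK6, of 7695 genes compared, with Euclidean distances of 0.384, 0.502 and 0.533 between centred log2(FPKM + 1) profiles. NHLRC3 had 5.97, 3.19, 9.77 and 1.96 FPKM in the control and SAF-A libraries of 24 h and those of 48 h, in that order. TNRC6A, a GW182 protein of microRNA silencing, had 13.6, 7.80, 18.9 and 4.90 FPKM in the same order. In both, as in TXNIP, the control library of 48 h was the highest and the SAF-A library of 48 h the lowest. Both were picked by their nearness to TXNIP, so the shared order is no separate result. In the SAF-A library of 48 h NHLRC3 had about 8 estimated reads and TNRC6A about 49. The named genes compared (those with a mean of at least 5 FPKM) ranked far behind: HK2 was the 629th (distance 1.22), ARRDC3 the 3885th and SLC2A1 the 5387th.

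ARRDC3 differed from TXNIP in direction at 24 h. Like TXNIP, it was lower with SAF-A siRNA at 48 h and higher at 48 h than at 24 h with control siRNA. The difference of the siRNA effect between the times was -0.98 on the log2 scale for ARRDC3, beside -1.13 for TXNIP. ARRDC3, an alpha-arrestin that binds NEDD4-family ligases, was at 6.69 FPKM (6.19 to 7.18) in control and 9.61 FPKM (9.04 to 10.2) in SAF-A siRNA at 24 h. At 48 h it was at 21.3 FPKM (20.4 to 22.1) in control and 14.5 FPKM (11.0 to 18.1) in SAF-A siRNA. The SAF-A library was therefore the higher at 24 h (ratio 1.44, 1.31 to 1.58) and the lower at 48 h (ratio 0.684, 0.531 to 0.867), without a 2-fold call at either time, and no interval of a pair overlapped. ARRDC3 rose from 24 h to 48 h with control siRNA, 3.18-fold (2.93 to 3.46), a log2 change of 1.53 and the 23rd highest of the tested genes, of which 0.561% were called higher and 0.425% lower. With SAF-A siRNA its ratio over time was 1.51 (1.17 to 1.93). ARRDC2, a less studied alpha-arrestin, had 3.66, 2.85, 3.46 and 3.22 FPKM in the control and SAF-A libraries of 24 h and then those of 48 h and was not called in any comparison. With only its accession of highest mean, NM_001025604, in place of the sum, ARRDC2 was called lower at 48 h (log2 change -1.79). In the same pair another of its accessions, NM_015683, went the other way, from 0.894 to 3.19 FPKM. In the SAF-A library of 48 h NM_015683 held 8.93 estimated reads and NM_001025604 held 0.0862. That call thus rests on how a few reads were divided among overlapping transcripts.

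ARRDC4, the closest alpha-arrestin relative of TXNIP and another MondoA target, was listed at 0 FPKM in all 4 libraries. Its spliced transcript has 4067 nt, for which 3 reads would correspond to 0.0253 to 0.0276 FPKM in the 3 deep libraries and 0.638 FPKM in SAF-A siRNA at 48 h. Of 9294 symbols of at least 3000 nt, 261 (2.81%) were listed at 0 in all 4 libraries. Its E-box and CCAAT boxes, shown above, therefore cannot be set beside a measured change.

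Within a library the balance between the alpha-arrestins moved. The ratio of ARRDC3 to TXNIP was 0.691 (0.624 to 0.766) in control and 2.38 (2.10 to 2.69) in SAF-A siRNA at 24 h, and 1.22 (1.14 to 1.30) and 4.86 (2.49 to 10.6) at 48 h. TXNIP made up 48.3% of the summed FPKM of TXNIP, ARRDC3 and ARRDC2 in control and 24.5% in SAF-A siRNA at 24 h. At 48 h its share was 41.4% in control and 14.4% in SAF-A siRNA. These ratios do not depend on how a library is scaled. TXNIP was the most abundant of the 3 only with control siRNA at 24 h, and ARRDC3 was the most abundant in the other 3 libraries.

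The transcription factors that read glucose 6-phosphate were not called on the log2(FPKM + 1) scale in any comparison, although the ratio of MLXIP at 48 h was below 0.5. MLXIP (MondoA) was at 1.26 FPKM in control and 1.17 FPKM in SAF-A siRNA at 24 h, a ratio of 0.925 (0.751 to 1.14). At 48 h it was at 1.59 FPKM in control and 0.468 FPKM (0 to 1.01) in SAF-A siRNA, the latter from about 3 reads, a ratio of 0.295 (0.0604 to 0.872) with no overlap of the deposited intervals. The log2 change was -0.82, and MLXIP was called lower at 48 h with a pseudocount of 0.1 FPKM (-1.57) and with FPKM rescaled to 1 constant sum over symbols of at least 300 nt (-1.34). It had the lowest value of the 9 detected genes in every library. MLX, its partner, was at 16.9 and 16.1 FPKM at 24 h and at 13.7 and 10.6 FPKM (4.15 to 17.7) at 48 h, with ratios of 0.951 (0.872 to 1.04) and 0.771 (0.509 to 1.12). MLX was thus 13.4 and 13.8 times as abundant as MLXIP at 24 h, and 8.65 and 22.6 times (6.99 to 116) at 48 h.

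MLX shares 775 exon bases with PSMC3IP on the opposite strand, which was at 14.7, 14.9 and 9.37 FPKM in the 3 deep libraries and had no estimated read in SAF-A siRNA at 48 h. The use of strand in counting is not given in the sources used here, so reads of the pair cannot be told apart. The MLX transcript NM_198204 held 89.4% of MLX in control and 75.9% in SAF-A siRNA at 24 h, and NM_198205 held 10.6% and 22.9%. At 48 h NM_198204 held 99.995% in control and 75.7% in SAF-A siRNA, the latter from 21.5 estimated reads. Shares among transcripts that overlap in most of their length rest on how the authors' software divided the reads.

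Both glucose transporters had their highest value in the SAF-A library of 48 h, although the intervals of SLC2A3 overlapped there with those of the control. SLC2A1 (GLUT1), the main transporter of most cultured cells, was at 88.1 FPKM in control and 79.3 FPKM in SAF-A siRNA at 24 h, and at 149 FPKM and 202 FPKM (185 to 218) at 48 h. SLC2A3 (GLUT3), a transporter of high affinity, was at 4.40 and 2.93 FPKM at 24 h and at 6.67 and 9.13 FPKM (6.26 to 12.0) at 48 h. In both genes the SAF-A library was the lower at 24 h, with ratios of 0.899 (0.873 to 0.927) and 0.665 (0.576 to 0.767). At 48 h the ratios were 1.35 (1.26 to 1.45) for SLC2A1 and 1.37 (0.978 to 1.87) for SLC2A3, neither called.

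Between 24 h and 48 h of SAF-A siRNA both transporters rose, SLC2A1 2.54-fold (2.37 to 2.73) and SLC2A3 3.12-fold (2.21 to 4.31), in a comparison where 15.5% of the tested genes were called higher and 16% lower. With control siRNA the ratios over time were 1.69 (1.64 to 1.73) and 1.52 (1.35 to 1.71), below the 2-fold call, although SLC2A1 was the 146th highest of all tested genes. SLC2A1 exceeded SLC2A3 by 20.0, 27.1, 22.3 and 22.1 times (16.2 to 30.8) in the control and SAF-A libraries of 24 h and then those of 48 h. SLC2A3 has a close paralog, SLC2A14, and named pseudogenes, so its reads may be shared with copies.

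The hexokinases parted at 48 h of SAF-A siRNA. HK1, the broadly expressed form, was at 78.1 and 70.9 FPKM at 24 h and at 83.9 and 161 FPKM (143 to 180) at 48 h. HK2, the inducible form of muscle, fat and many cultured cells, was at 8.48 FPKM (8.06 to 8.90) in control and 7.23 FPKM (6.86 to 7.60) in SAF-A siRNA at 24 h. At 48 h HK2 was at 9.84 FPKM (9.39 to 10.3) in control and 1.31 FPKM (0.521 to 2.10) in SAF-A siRNA, the latter from about 11 reads. Over the 4 libraries, HK2 thus had its own lowest value and HK1 its own highest value in the SAF-A library of 48 h.

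HK2 fell by 2.23 on the log2 scale at 48 h, 7.50-fold lower in FPKM (4.18 to 15.0), and was the 248th lowest of the tested genes. HK1 had a log2 change of 0.93 in the same comparison, a ratio of 1.92 (1.77 to 2.07) just short of the call. Between 24 h and 48 h of SAF-A siRNA, HK1 rose 2.27-fold (2.09 to 2.45) and HK2 fell by 1.83 on the log2 scale. With control siRNA the ratios over time were 1.07 (1.04 to 1.11) for HK1 and 1.16 (1.09 to 1.24) for HK2.

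The ratio of HK1 to HK2 was 9.21, 9.81 and 8.53 in the 3 deep libraries (both of 24 h, then control siRNA of 48 h) and 122 (68.0 to 246) in the SAF-A library of 48 h. HK2 accordingly made up 9.79%, 9.25% and 10.5% of the summed hexokinase FPKM in the first 3 libraries and 0.810% in the last. The profile of HK2 over the 4 libraries was nearest to those of ANP32A, NEU3 and EIF2S3, at distances of 0.0428, 0.0469 and 0.0481. ANP32A, for one, had 35.1, 29.8, 38.7 and 7.75 FPKM, the last from about 21 reads. Its drop was likewise in the last library, which follows from its choice by nearness to HK2. HK2 shares 1333 exon bases with the opposite-strand HK2-DT and has a processed pseudogene, HK2P1. In a description chosen after these values were seen, of 1732 tested genes with a pseudogene named after them 23% were called lower at 48 h, against 17.6% of the 9321 others, and the part of such copies in the HK2 value was not tested.

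**Figure D3:**
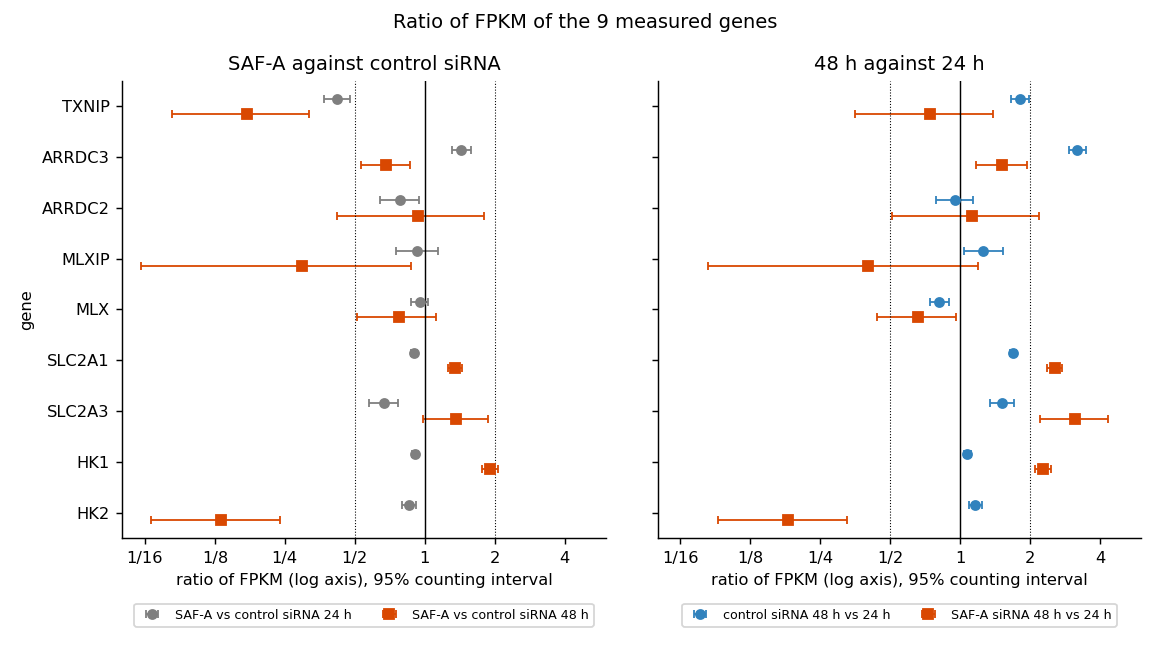
Ratio of FPKM with the exact 95% counting interval (bars, log axis) for the 9 genes with reads, SAF-A against control siRNA at 24 h and 48 h (left) and 48 h against 24 h within each siRNA (right); dotted lines mark 2-fold. TXNIP lies at 0.418 and 0.171 in the left panel, and HK2 at 0.852 and 0.133.

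Over the 9 tested genes, the SAF-A comparison at 24 h called 0 higher and 1 lower (TXNIP). Their median was -0.15 on the log2 scale, against -0.07 over all tested genes. At 48 h the SAF-A comparison called 0 higher and 2 lower (TXNIP and HK2), with a median of -0.35 against -0.11. The comparison of times called 1 higher (ARRDC3) with control siRNA, and 3 higher (SLC2A1, SLC2A3 and HK1) and 1 lower (HK2) with SAF-A siRNA. In the 48 h comparison and in the SAF-A comparison of times, calls were frequent among all tested genes (14.3% to 18.5% in each direction), and 1 to 3 called genes of 9 are not read as a result about the set. In each called case the deposited intervals of the pair of libraries did not overlap, which also held for most called genes. At 24 h it held for 42 of 43 higher and 26 of 27 lower genes. At 48 h it held for 1420 of 1581 and 1833 of 2040. Over time it held for 60 of 62 and 46 of 47 with control siRNA. With SAF-A siRNA it held for 1545 of 1717 and 1579 of 1769.

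**Figure D4:**
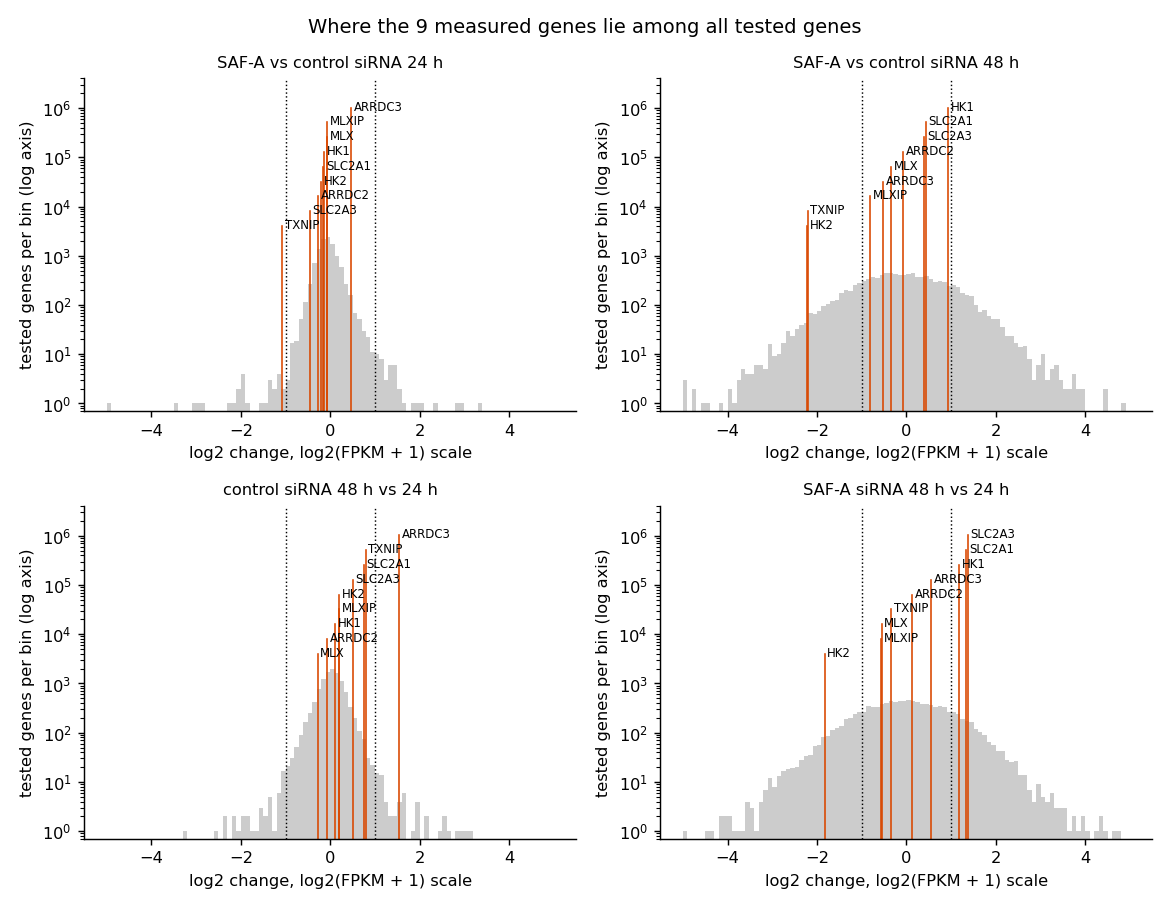
Histograms of the log2 change of all 11053 tested genes (grey, genes per bin on a log axis) in the 4 comparisons, with the 9 named genes as vertical lines whose heights only separate the labels; dotted lines mark 2-fold, and changes beyond the axis are counted in the end bins. TXNIP lies at the lower edge of the narrow 24 h distribution (-1.08), while the 48 h distribution is wide and holds TXNIP (-2.21) and HK2 (-2.23) inside its lower part.

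The order of levels within each library was stable at the top. SLC2A1 and HK1 were the highest of the 10 genes in all 4 libraries, followed by MLX at 24 h in both groups and by ARRDC3 at 48 h in both groups. TXNIP was the 4th in both control libraries and the 6th with SAF-A siRNA at 24 h. With control siRNA at 24 h only SLC2A3 and ARRDC2 had overlapping intervals among neighbours in this order, and at 48 h none did. With SAF-A siRNA at 48 h, the intervals of all neighbours from ARRDC3 downwards overlapped, but SLC2A3 (6.26 to 12.0 FPKM) lay wholly above TXNIP, HK2 and MLXIP.

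Other genes of the pathway were taken from 10 lists chosen with earlier results of these data known. Their calls are to be read against all tested genes, of which 0.389% were called higher and 0.244% lower at 24 h, and 14.3% higher and 18.5% lower at 48 h. Among the wider network of MLX and its relatives MAX and MYC, 7 of 10 genes were tested, none was called at 24 h, and at 48 h 3 rose and 2 fell, with a median of 0.12. MYC fell from 40.8 to 7.98 FPKM at 48 h and MXI1, a repressor that pairs with MAX, rose from 3.14 to 9.56 FPKM. Of the other alpha-arrestins ARRDC1 and ARRDC5 and the beta-arrestins ARRB1 and ARRB2, 3 of 4 were tested, all but ARRDC5. None was called at 24 h, and at 48 h 2 rose and none fell. ARRB2 rose from 4.05 to 10.2 FPKM at 48 h.

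Of 11 NEDD4-family ligases and endosomal partners that alpha-arrestins bind, none was called at 24 h (median 0.01), and 5 rose at 48 h (median 0.64). NEDD4 itself had 19.0, 25.0, 16.9 and 74.2 FPKM in the control and SAF-A libraries of 24 h and then those of 48 h, a log2 change of 2.07 at 48 h. Of 13 genes of the thioredoxin system, none was called at 24 h, and 5 rose and none fell at 48 h (median 0.41), where 14.3% of all tested genes were called higher and 18.5% lower. In that list DDIT4 (REDD1), which forms a complex with TXNIP, had 11.4, 15.9, 26.3 and 126 FPKM, and it also rose between the control libraries (log2 change 1.14).

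Downstream of hexokinase, 20 of 21 genes of glycolysis and lactate export were tested, and none was called at 24 h. Their median at 24 h was -0.12, against -0.07 for all tested genes. At 48 h 4 rose and 5 fell (median 0.27), beside 14.3% and 18.5% of all tested genes. PFKL, a phosphofructokinase, rose from 26.2 to 70.4 FPKM and PGAM1, a phosphoglycerate mutase, fell from 220 to 49.6 FPKM. PFKFB3, which makes the activator of phosphofructokinase, had the lowest change of this list at 24 h, -0.49. In the pentose phosphate, hexosamine and glycogen branches, 17 of 17 were tested, none was called at 24 h, and at 48 h none rose and 2 fell, among them GNPNAT1 of the hexosamine branch, from 18.7 to 3.31 FPKM.

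Other transporters and hexokinases were mostly low, with 6 of 15 tested and no call at 24 h, and at 48 h 2 rose and 1 fell, SLC2A6 from 4.28 to 12.0 FPKM and HKDC1 from 5.22 to 1.89 FPKM. Of 12 tested AMPK and FOXO genes, which act on TXNIP and glucose uptake, 1 was called, PRKAB1 at 48 h (log2 change 1.02). Of 14 tested genes of the hypoxia-inducible factor and its targets, a set that holds further regulators of SLC2A1, none was called at 24 h, and 5 rose and 3 fell at 48 h, beside 14.3% and 18.5% of all tested genes. NDRG1 rose from 2.35 to 16.7 FPKM and BNIP3 fell from 49.6 to 22.9 FPKM. VEGFA, in the same list, changed by 0.68 on the log2 scale at 24 h and by -0.55 at 48 h. Of 10 tested genes of pyruvate use and mitochondrial entry, none was called at 24 h, and 2 rose and 2 fell at 48 h. VDAC1, the mitochondrial channel that hexokinases bind, fell from 147 to 4.56 FPKM, the latter from about 10 reads.

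**Figure D5:**
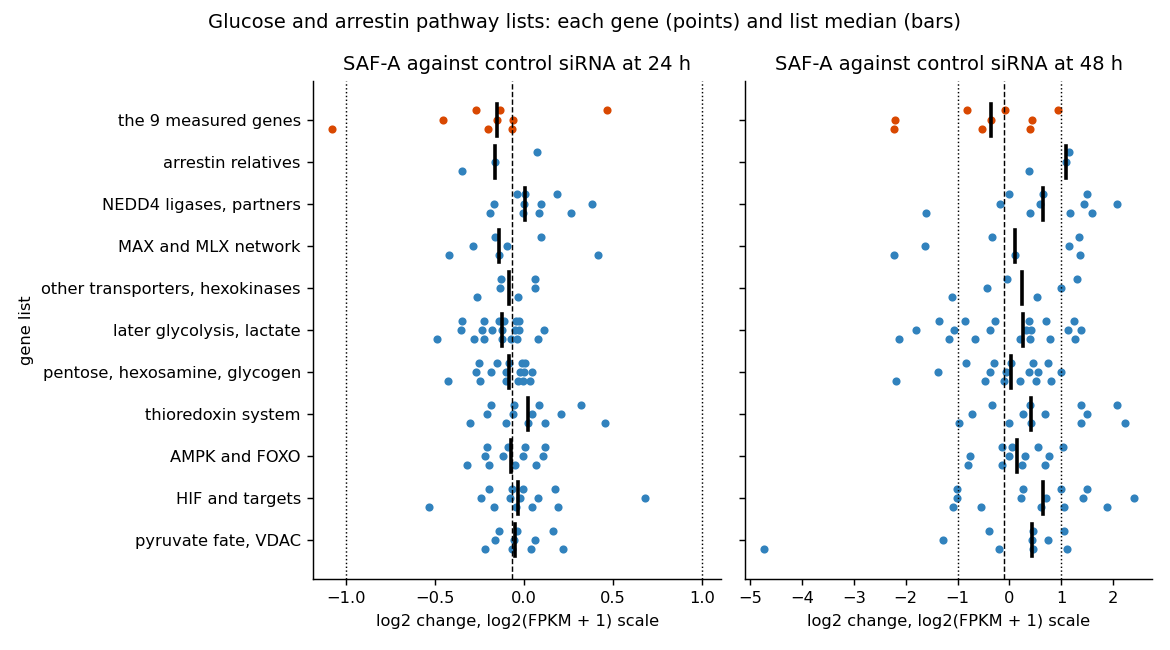
Log2 change of SAF-A against control siRNA at 24 h (left) and 48 h (right) for the 9 named genes and for the tested genes of 10 pathway lists; points are genes, short bars list medians, the dashed line the median of all tested genes and dotted lines 2-fold. At 24 h TXNIP alone passes 2-fold, and at 48 h points of most lists lie on both sides of 0.

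The other genes with the paired E-box-like sites of TXNIP were described after the values were seen. Of the 20 genes with the pair in a RefSeq window, 14 besides TXNIP were tested. At 24 h none was called (0.389% of all tested genes were higher and 0.244% lower), and their log2 changes ran from -0.30 to 0.32 with a median of 0.05. At 48 h 3 were higher and 2 lower, beside 14.3% and 18.5% of all tested genes, with changes from -1.78 (RAN, a nuclear transport GTPase) to 2.28 (ATP5ME, a subunit of ATP synthase). GFPT1, the first enzyme of the hexosamine branch, changed by -0.10 at 24 h and 0.38 at 48 h.

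The SAF-A siRNA was compared with the transcripts, also after the values were seen, because only 1 duplex was used. Its sense strand, with the 7 bases that pair with bases 2 to 8 of the guide strand in capitals, and the matches to those 7 bases in the named genes (capitals, with flanking bases, from the RefSeq transcripts placed on hg19) were as follows.
SAF-A siRNA sense strand, written as DNA: cctgggaatcgtggcggATATAATa
TXNIP, chr1:145442157-145442163, UTR, plus strand: tacagaattATATAATtctaacgct
SLC2A3, chr12:8073161-8073167, UTR, minus strand: catatacctATATAATaaagctact
HK2, chr2:75059853-75059859, near the start of the transcript, plus strand: tgattacttATATAATaattttaag
ARRDC4, chr15:98513181-98513187, coding sequence, plus strand: tacaattccATATAATggttttggc

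Of 10974 transcripts scanned, HNRNPU alone held the whole sense sequence. The other 6 named genes held no match to the 7 bases. A match of this kind is common: of tested genes with 2500 to 3500 nt, the range that holds the TXNIP transcript of 2951 nt, 425 (20.4%) had at least 1. Their median log2 change was -0.07 at 24 h and -0.38 at 48 h, against -0.09 and -0.15 for the 1659 without. The HK2 match, at base 72 of the 7093 in its RefSeq transcript, had no UTR or coding label in the GENCODE annotation. The matches of TXNIP, SLC2A3 and ARRDC4 had such a label. Whether that stretch is part of the HK2 RNA in these cells was not tested. The part of the matches in the changes of TXNIP, SLC2A3 and HK2 was not tested either.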

How the data were processed

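Per the file headers, the authors deposited FPKM with lower and upper bounds for 47338 RefSeq accessions per library, in the format of Cufflinks, and transcript files with exon structure and a coverage value per transcript. The deposited score in the transcript files was not used. The submitters' processing notes name TopHat2 2.0.10, Bowtie2 2.1.0, Cufflinks 2.2.1, TopHat, Cuffdiff and hg19. Filters, strand use and the counting of multiply mapped reads are not given in the sources used here. Ribosome-depleted total RNA was read as 50-base single-end reads, per the labels' protocols.

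Accessions were joined to symbols through RefSeq (GRCh38.p14; 97.1% matched) and FPKM and bounds were summed per symbol; summed bounds are wider than an interval of the sum. Of 123 distinct exons of the named genes, 104 were identical to an exon of GENCODE 44 on GRCh37. Deposited coverage divided by FPKM gave the implied mapped reads. Estimated reads were FPKM times effective length (fragments of 200 ± 80 nt, an assumed setting) times that number. Ratios of FPKM carry exact conditional (Clopper-Pearson) 95% intervals from these reads. Each group is 1 library, and no test or count model was fitted; an additive model of siRNA and time was not run. Calls used log2(FPKM + 1), at least 2-fold, a mean of at least 1 FPKM and at least 300 nt; the calling step was tested on simulated data. Python 3.11.15, numpy 2.4.6, pandas 2.3.3, scipy 1.17.1 and matplotlib 3.10.9 were used.

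The named genes and lists were chosen with earlier results of these data known. Beside them the text names genes mostly by 1 rule: the tested gene of each list with the highest and the lowest change at each time, and the 3 nearest profiles to TXNIP and HK2. Not every gene that the rule selects is named. HNRNPU, the cell markers, overlapping or paralogous genes and the genes with the paired E-box-like sites were named outside the rule. The 11 alternative settings covered the pseudocount, the filters, the scaling, the call rule and the summing over accessions. Protein sequences were not used here. The result of 1 gene of the ligase and partner list is not reported here.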

Additional observations from a re-analysis of the deposited data

How the results depend on the processing

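TXNIP was called lower at 24 h (log2 change -1.24 to -1.01) and at 48 h (-2.61 to -2.21), HK2 lower at 48 h (-2.81 to -2.23) and ARRDC3 higher between the control libraries (up to 1.65) in all 11 alternative settings. No called value changed direction. Of the recomputed counts, 140 differed from the reported one by no more than 1.5 times and 36 by more. The counts of all genes that moved are given as higher/lower. At 24 h they were 78/58 with a pseudocount of 0.1 FPKM, 26/5 with a mean of at least 5 FPKM, 213/145 with all lengths, 79/64 with FPKM rescaled to 1 constant sum over symbols of at least 300 nt, 162/131 at 1.5-fold and 156/166 with only the highest accession, against 43/27 as reported. For control siRNA over time they were 134/105, 37/29, 208/158, 126/99, 318/256 and 196/194 in the same order, against 62/47. At 48 h 1284 were lower with a mean of at least 5 FPKM, 3650 with the constant sum, and 2775/3468 passed 1.5-fold, against 1581/2040. For SAF-A siRNA over time the values were 1121 lower, 3175 lower and 3034/3114, against 1717/1769. The share of higher among called genes at 24 h was 42.6% in TPM against 61.4%, at 48 h 25.9% with the constant sum against 43.7%, for control siRNA over time 68.3% in TPM against 56.9%, and for SAF-A siRNA over time 63.8% in TPM and 31.5% with the constant sum against 49.3%. TPM moved the median of all genes to -0.23 at 24 h and 0.18 for SAF-A siRNA over time, and the constant sum moved it to -0.38 at 48 h and -0.25. Among the named genes, at 48 h MLXIP was called lower with a pseudocount of 0.1 (-1.57), the constant sum (-1.34) and 1.5-fold (-0.82), and ARRDC2 with the highest accession (-1.79 against -0.08). For SAF-A siRNA over time a pseudocount of 0.1 added MLXIP (2 lower) and the highest accession added ARRDC2 (2 lower), and 1.5-fold gave 1 higher at 48 h (HK1) and 3 higher for control siRNA over time (TXNIP, ARRDC3, SLC2A1). HK1 was not called for SAF-A siRNA over time with the constant sum (0.97). Where no construction of the setting explains a move, the cause was not tested. No paired analysis was possible because the groups share only 1 replicate number within a comparison. An additive model of siRNA and time, which would leave 1 residual degree of freedom, was not run. The depth of the SAF-A library of 48 h limits TXNIP, HK2, ARRDC2 and MLXIP there to about 10, 11, 9 and 3 reads.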
